A study of Mus musculus with 6 samples.

Results

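The 35 genes described here make, sense, move and export cholesterol. They comprise 18 enzymes that build sterols, 5 genes that control the sterol-regulated transcription factors, 6 genes of sterol uptake and intracellular transport, 3 genes of efflux, and 3 enzymes of fatty acid synthesis that share the same regulators. The list is given by gene name, and it was chosen with earlier results of these data known. Of the 35 names, 34 were found on the array as listed and 1, Sc4mol, was found under its current symbol Msmo1. Each gene was represented by its probe of highest mean signal, and all 35 were well above background on all 5 arrays with scanner files. They are 35 of the 20199 genes that passed the filter on dim probes, out of 34647 gene names on the array.

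RNA was measured on 1-colour Agilent mouse arrays in 6 samples of cultured macrophages, which the labels call polarized M2-like BMM. The 3 WT and 3 c-Maf KO samples were derived from chimeric mice carrying WT or c-Maf KO fetal liver. Both groups were cultured in the same medium with the macrophage growth factor M-CSF at 10 ng/ml, added daily from day 4. No polarizing agent other than M-CSF is named in the labels. Strain, age, the form of the c-Maf KO allele and the share of cells that came from the chimeric host are not given in the sources used here. Whether replicates came from separate mice is not stated either, so p-values reflect spread among these 6 samples alone, and that spread may be technical. The files of WT replicates 1 and 3 carry the same sample tag. The SD of their log2 differences was 0.237, beside 0.239 and 0.235 for the other WT pairs, and they were kept as separate samples. These SDs cover only the probes well above background on every array with a scanner file.

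As background, cells build cholesterol from acetyl-CoA through mevalonate, squalene and lanosterol. When sterols in the endoplasmic reticulum are scarce, the escort protein SCAP carries the transcription factors SREBP-1 and SREBP-2 to the Golgi, where they are cut and released to switch on the synthesis and uptake genes. INSIG proteins hold SCAP back when sterols are plentiful. In the opposite state, oxysterols activate the nuclear receptors called LXR, which switch on efflux genes such as Abca1 and Abcg1. Macrophages are known for this balance because they take up lipoproteins and dying cells and must export the cholesterol they contain. c-Maf is a basic leucine zipper transcription factor of the macrophage lineage.

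Promoter windows of 250 bases upstream of the transcription start were read from the RefSeq annotation of GRCm38.p6, which held a window for 27 of the 35 genes. Several members had more than 1 start, giving 37 windows. Abcg1, Fdft1, Fdps, Npc1, Scd1, Scd2, Sqle and Stard4 had none. The sequences of 4 genes are shown because they stand for the 3 arms of the system: Hmgcs1, the enzyme that makes HMG-CoA, and Srebf2, the gene of SREBP-2, on the synthesis side, Insig1 on the sensing side and Abca1 on the export side. The windows lie at chr13:119690101-119690350 (Hmgcs1), chr15:82147019-82147268 (Srebf2) and chr5:28071162-28071411 (Insig1) on the plus strand, and at chr4:53159896-53160145 (Abca1) on the minus strand. Capitals mark matches, on either strand, to the sterol regulatory element core TCACNCCA, the NF-Y box ATTGG or the Maf recognition core TGCTGA.
Hmgcs1: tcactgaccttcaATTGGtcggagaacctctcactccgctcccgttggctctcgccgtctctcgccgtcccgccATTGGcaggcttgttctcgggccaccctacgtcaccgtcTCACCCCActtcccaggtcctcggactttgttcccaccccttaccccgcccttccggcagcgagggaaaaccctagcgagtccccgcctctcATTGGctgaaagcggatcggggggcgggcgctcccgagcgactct
Srebf2: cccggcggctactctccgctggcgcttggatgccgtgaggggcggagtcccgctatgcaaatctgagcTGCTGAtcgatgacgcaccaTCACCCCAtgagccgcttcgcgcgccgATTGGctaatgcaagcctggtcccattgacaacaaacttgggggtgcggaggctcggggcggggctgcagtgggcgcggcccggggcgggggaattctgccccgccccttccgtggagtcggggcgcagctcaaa
Insig1: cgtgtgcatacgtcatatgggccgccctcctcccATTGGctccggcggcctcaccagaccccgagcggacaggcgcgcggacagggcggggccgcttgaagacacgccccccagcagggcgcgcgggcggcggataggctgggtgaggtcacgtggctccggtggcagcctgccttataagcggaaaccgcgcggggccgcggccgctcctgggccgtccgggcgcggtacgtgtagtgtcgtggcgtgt
Abca1: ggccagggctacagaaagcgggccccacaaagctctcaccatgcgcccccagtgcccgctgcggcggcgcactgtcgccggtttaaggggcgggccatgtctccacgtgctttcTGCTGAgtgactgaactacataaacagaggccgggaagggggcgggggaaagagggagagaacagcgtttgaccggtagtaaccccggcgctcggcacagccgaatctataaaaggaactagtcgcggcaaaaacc

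The sterol regulatory element core was found in 4 of the 37 member windows (10.8%), those of Apoe, Hmgcs1, Msmo1 and Srebf2, against 3.67% of all 32851 windows. The NF-Y box, which binds a factor that acts beside SREBP, was found in 24 of 37 member windows (64.9%) against 33.85% of all windows. The Maf core was found in 5 of 37 windows (13.5%), belonging to Abca1, Cyp51, Sc5d, Srebf1 and Srebf2, against 16.08% of all windows. Matches are counted on both strands, and a match says only that the letters are present. Matches to different motifs shared bases in 2 member windows, of Sc5d and Srebf1.

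Between 48.9% and 50.5% of 55681 probes were well above background on each of the 5 arrays with scanner files, and no probe was saturated. The sixth sample, c-Maf KO replicate 1, enters through the authors' value table, in which each value is a ratio to the probe's median over the 6 samples. Values below are log2 of these ratios, and a difference is c-Maf KO minus WT, so positive differences are higher in c-Maf KO. Because each probe is divided by its own median, values compare samples for 1 gene and do not compare genes with each other. Maf itself was 1.92, 1.98 and 2.03 in the WT samples and -2.22, -2.36 and -1.92 in the c-Maf KO samples, a 17.7-fold difference (log2 difference -4.14, SE 0.12, limma adjusted p = 0.000556). All 10 macrophage markers were detected, but so were 9 of 9 granulocyte and 18 of 19 fibroblast and stromal markers. Detection alone therefore does not test the macrophage identity given in the labels. The labels give liver as the tissue, and of 13 hepatocyte markers 7 were not kept, among them Alb, Apoa1, Ttr and Hnf4a. The other 6, Afp, Apoa2, Trf, Serpina1a, Fga and Tat, were kept.

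None of the 35 cholesterol genes passed the limma test at an adjusted p under 0.05, against 7 of 20199 genes overall (0.0347%). None passed either with the trend and robust options of limma's eBayes, under which 83 genes did (0.411%). The largest differences were those of the desaturases Scd1 and Scd2, which were 1.61-fold and 1.25-fold higher in c-Maf KO, and of the exporter Abca1 and the sterol carrier Stard4, which were 1.24-fold and 1.21-fold lower. The second detected probe of Stard4 had the opposite sign. The 18 sterol synthesis enzymes lay near 0, with a median difference of 0.018. The members spread to both sides, with 21 positive and 14 negative differences and a median of 0.033, beside a median of 0.0018 over all genes tested. Their median absolute difference was 0.070, beside 0.098 over all genes tested. The members were well above background on all 5 arrays with scanner files, while the genes tested needed only 2 of 5. The part of signal level in these 2 medians was not tested.

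At an unadjusted p under 0.05, 7 of the 35 members differed (20.0%), against 12.6% of all genes tested. The 3 WT and 3 c-Maf KO values did not overlap for 8 members (22.9%), a share near the 20.0% of all genes. Of these, 5 were higher in c-Maf KO (14.3%, against 11.1% of all genes) and 3 were lower (8.57%, against 8.86%). The 5 were Pmvk, Fdft1, Dhcr7, Scd1 and Scd2, and the 3 were Insig1, Stard4 and Abca1, with second probes of opposite sign for Fdft1 and Stard4. The plot of differences with their intervals shows these 8 genes in a separate colour.

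**Figure D1:**
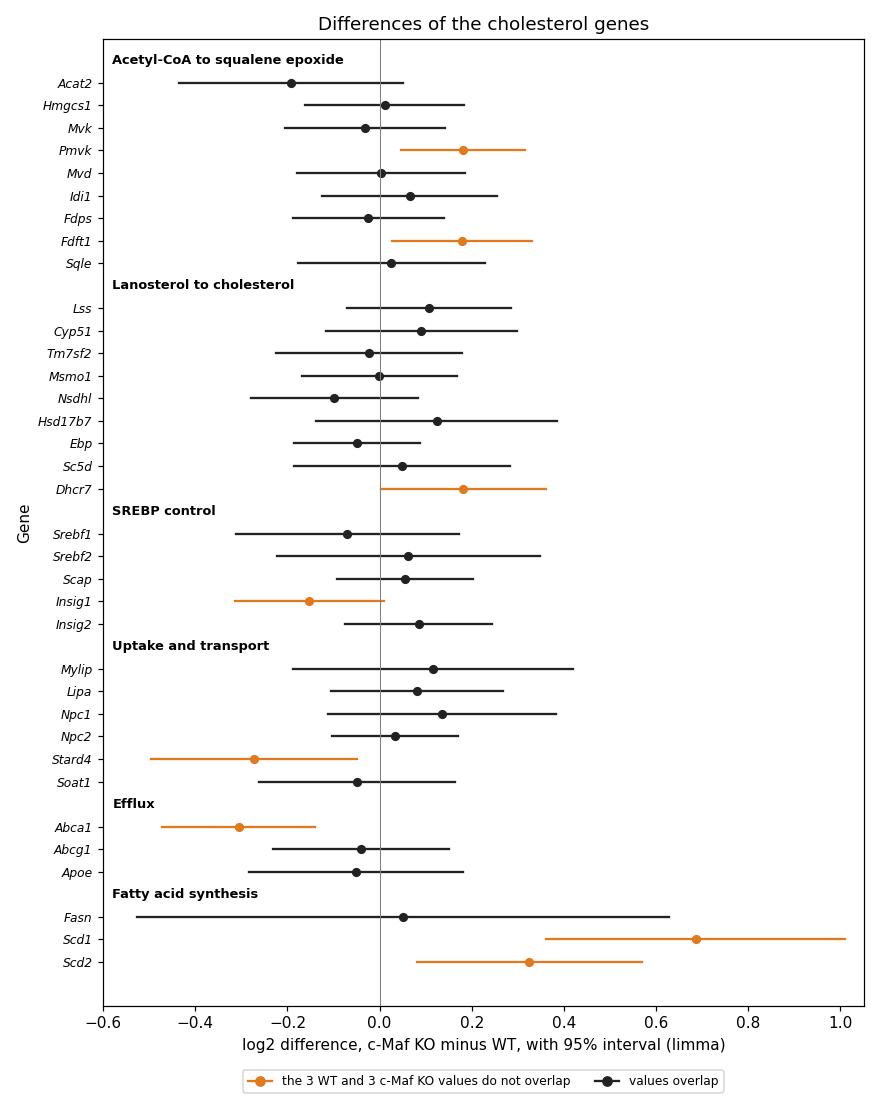
Differences of the 35 genes, c-Maf KO minus WT on the log2 scale (x axis), with 95% intervals from the limma fit, by gene and role (y axis); orange marks the 8 genes whose 3 WT and 3 c-Maf KO values did not overlap. The sterol enzymes lie between -0.19 and 0.18, while Scd1 reaches 0.69.

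The first group of enzymes, from acetyl-CoA to squalene epoxide, held 9 members with 6 positive and 3 negative differences and a median of 0.011. Pmvk, which phosphorylates mevalonate phosphate, was -0.13, -0.062 and -0.064 in WT and 0.10, 0.12 and 0.062 in c-Maf KO, with values here and below in the order of replicates 1 to 3. All 3 c-Maf KO values were above all 3 WT values. The difference was 0.18 (SE 0.055, 95% interval 0.047 to 0.32), with an adjusted p of 0.283, and its probe lies at chr3:89272867-89272926 (mm9). The second detected probe of Pmvk gave 0.10.

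Fdft1, squalene synthase, commits the pathway to sterols. Its probe read -0.099, -0.18 and -0.034 in WT and 0.092, 0.034 and 0.10 in c-Maf KO, again without overlap. The difference was 0.18 (SE 0.062, interval 0.027 to 0.33, adjusted p = 0.334). The mapped bases of this probe span chr14:63765750-63769990 (mm9). The other detected probe of Fdft1 went the opposite way, at 0.0017, 0.13 and 0.14 in WT and -0.082, -0.0017 and -0.098 in c-Maf KO, a difference of -0.15. Averaging both probes gave 0.014 (adjusted p = 0.935), so the 2 probes give no common direction for Fdft1.

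Acat2, which joins acetyl-CoA units at the start of the pathway, had the largest difference of this group, -0.19 (SE 0.099, interval -0.44 to 0.051, adjusted p = 0.479). Its values were -0.0090, 0.33 and 0.098 in WT and -0.049, -0.12 and 0.0090 in c-Maf KO, so the groups overlapped and WT replicate 2 was the highest sample. Without that sample the difference of Acat2 was -0.099. Mvd, which makes isopentenyl diphosphate, had the smallest difference, 0.0038 (interval -0.18 to 0.19), with 0.049, -0.12 and 0.026 in WT and -0.077, -0.026 and 0.074 in c-Maf KO. The remaining members were close to 0. Hmgcs1, whose promoter is shown above, was -0.016, -0.095 and 0.11 in WT and 0.0063, -0.0063 and 0.033 in c-Maf KO. Its difference of 0.011 had an interval of -0.16 to 0.18, and the c-Maf KO values lay within the WT range. Mevalonate kinase (Mvk), isopentenyl diphosphate isomerase (Idi1), farnesyl diphosphate synthase (Fdps) and squalene epoxidase (Sqle) differed by -0.032, 0.065, -0.024 and 0.025.

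The second group of enzymes cyclizes squalene epoxide to lanosterol and turns it into cholesterol. It held 9 members with 5 positive and 4 negative differences and a median of 0.048. Dhcr7, which completes cholesterol by reducing 7-dehydrocholesterol, had the largest difference. Its values were -0.0076, -0.16 and -0.061 in WT and 0.16, 0.15 and 0.0076 in c-Maf KO, without overlap, although WT replicate 1 and c-Maf KO replicate 3 lay close together. The difference was 0.18 (SE 0.073, interval 0.0026 to 0.36, adjusted p = 0.391), at a probe at chr7:151033874-151033933 (mm9). Msmo1, a sterol C4-methyl oxidase, had the smallest difference, -0.00092 (interval -0.17 to 0.17). Its values were 0.072, -0.055 and 0.0015 in WT and 0.088, -0.070 and -0.0015 in c-Maf KO, and the groups covered nearly the same range.

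For the other 7 of this group the groups overlapped at the probe used. Lanosterol synthase (Lss) differed by 0.11, the lanosterol demethylase Cyp51 by 0.091, the sterol C14 reductase Tm7sf2 by -0.023 and the C4 decarboxylating dehydrogenase Nsdhl by -0.099. The keto-reductase Hsd17b7 differed by 0.12, the sterol isomerase Ebp by -0.049 and the C5 desaturase Sc5d by 0.048. The second detected probe of Hsd17b7 read -0.066, -0.12 and -0.11 in WT and 0.066, 0.12 and 0.18 in c-Maf KO, without overlap, a difference of 0.22 (limma adjusted p over all probes 0.669). At the probe used, none of these 7 had an interval that left out 0.

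Averaged over all 18 sterol enzymes, the log2 ratio was -0.0051, -0.070 and 0.023 in WT and 0.029, 0.017 and 0.0011 in c-Maf KO. The groups overlapped in this mean, and WT replicate 2 was the lowest sample. That sample was the lowest of all 6 for 10 of the 18 enzymes. The 95% intervals of the single enzymes reached no further than -0.44 and 0.39, so differences beyond 1.35-fold lower or 1.31-fold higher lay outside every one of the 18 intervals. The plot of single samples shows how close the values of most enzymes lay.

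**Figure D2:**
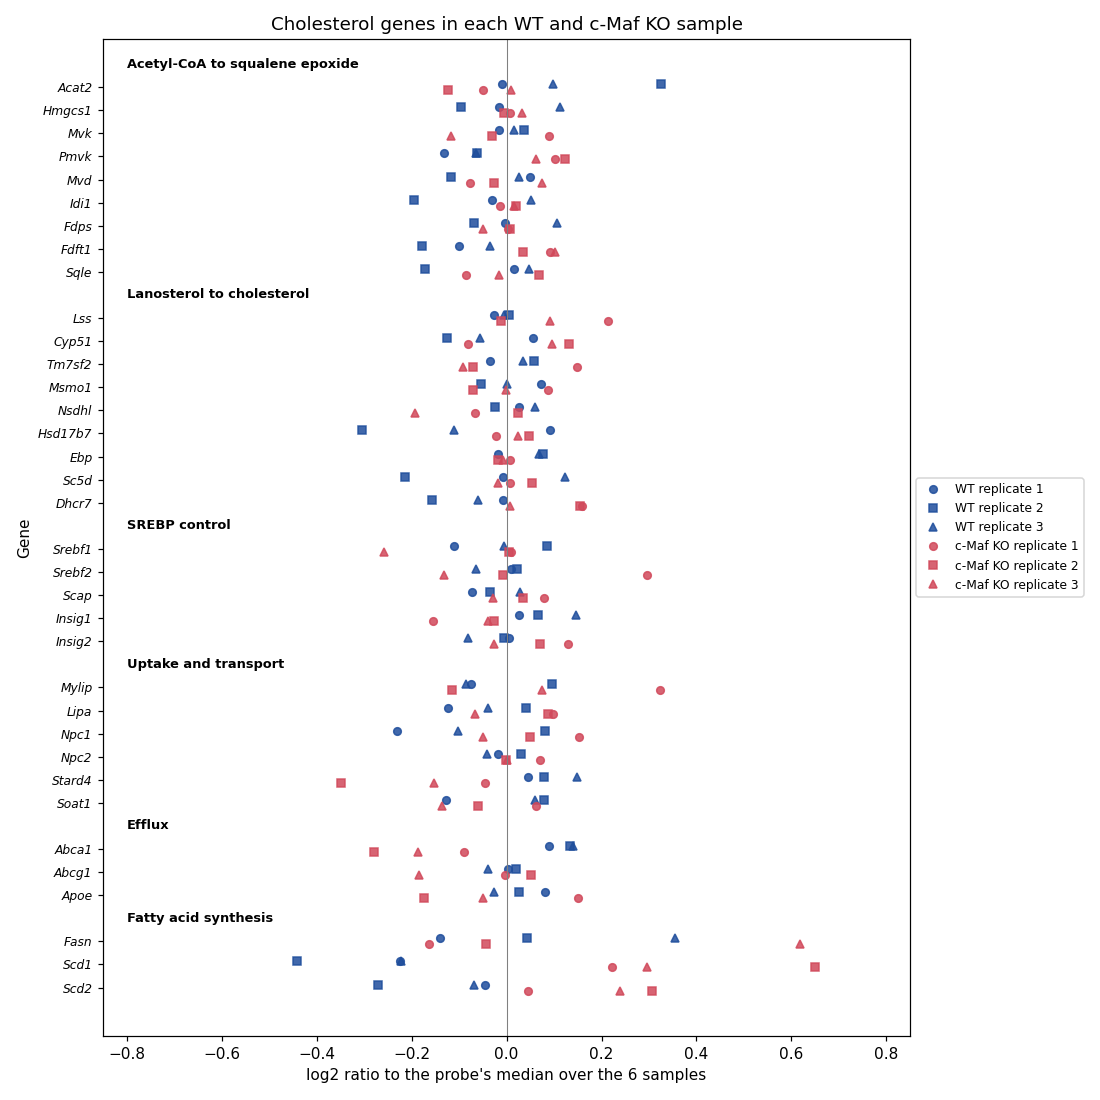
Log2 ratio to the probe's median (x axis) of each of the 35 genes (y axis, by role) in WT (blue) and c-Maf KO (red) samples, with the marker shape giving the replicate. Most sterol enzymes lie close to 0 in all 6 samples, Scd1 separates the groups most widely, and Fasn is highest in replicate 3 of both groups.

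The 5 control genes had 3 positive and 2 negative differences and a median of 0.055. Insig1, the endoplasmic reticulum anchor of SCAP and itself a target of the SREBP factors, was the only one of the 5 whose groups did not overlap. Its values were 0.026, 0.066 and 0.15 in WT and -0.15, -0.026 and -0.040 in c-Maf KO. The difference was -0.15 (SE 0.066, interval -0.31 to 0.0091, adjusted p = 0.419), a 1.11-fold lower level, at a probe at chr5:28404246-28404305 (mm9). Scap, the escort, had the smallest difference, 0.055 (interval -0.093 to 0.20). Its values were -0.073, -0.034 and 0.028 in WT and 0.078, 0.035 and -0.028 in c-Maf KO, so that the groups overlapped.

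Of the SREBP genes, Srebf2, which encodes the main activator of cholesterol synthesis, was 0.0085, 0.023 and -0.064 in WT and 0.30, -0.0085 and -0.13 in c-Maf KO. The c-Maf KO replicates lay on both sides of the WT values, replicate 1 above and replicate 3 below, and the difference of 0.062 had an interval of -0.22 to 0.35. With the 5 arrays that have scanner files, which leave out c-Maf KO replicate 1, the sign turned (-0.061). Srebf1, which encodes the factor more active on fatty acid genes, differed by -0.070, and Insig2, the second anchor of SCAP, by 0.085.

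Among the 6 genes of uptake and intracellular transport, 4 differences were positive and 2 negative, with a median of 0.057. Stard4, a soluble carrier that moves cholesterol between membranes, had the largest difference at the probe used. Its values were 0.045, 0.078 and 0.15 in WT and -0.045, -0.35 and -0.15 in c-Maf KO, without overlap. The difference was -0.27 (SE 0.091, interval -0.50 to -0.050, adjusted p = 0.316). The other detected probe of Stard4 gave the opposite sign, 0.20, with values of -0.24, -0.21 and 0.0077 in WT and -0.0077, 0.062 and 0.11 in c-Maf KO. Averaging both probes gave -0.035 (adjusted p = 0.872), so Stard4, like Fdft1, has no direction shared by its probes.

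Npc2, the lysosomal protein that hands cholesterol to NPC1, had the smallest difference of the transport genes, 0.033 (interval -0.10 to 0.17). It was -0.019, 0.030 and -0.041 in WT and 0.070, -0.0011 and 0.0011 in c-Maf KO, a narrow range with overlap. Npc1, the lysosomal membrane exporter, differed by 0.13, and Lipa, the acid lipase that frees cholesterol from lipoprotein esters, by 0.081. Mylip, a ubiquitin ligase that limits lipoprotein uptake, differed by 0.12 with its highest value, 0.32, in c-Maf KO replicate 1. The difference of Mylip was -0.00029 on the 5 arrays that leave out that sample. Soat1, which stores cholesterol as esters, differed by -0.048.

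Several members carried more than 1 probe, which allows a check of their differences within these arrays. Scd1, Scd2, Abca1, Dhcr7 and Insig1 had 1 probe each, so their differences could not be checked in this way. The 35 genes had 47 probes, of which 45 were detected, and 10 genes had 2 detected probes. For 5 of these 10, Fdft1, Insig2, Nsdhl, Stard4 and Tm7sf2, the probes differed in sign. The plot of probe pairs shows Fdft1 and Stard4 on both sides of 0.

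**Figure D3:**
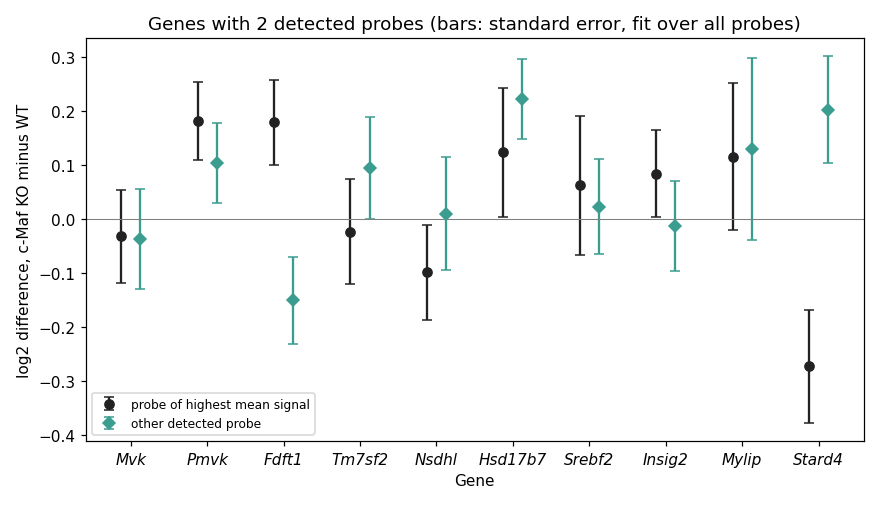
Log2 difference, c-Maf KO minus WT (y axis), of each detected probe of the 10 genes with 2 detected probes (x axis), with standard errors from the fit over all probes; circles are the probes used and diamonds the other detected ones. For Stard4 the probes read -0.27 and 0.20, and for Fdft1 0.18 and -0.15.

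The 3 efflux genes all had negative differences, with a median of -0.052, but that of Abcg1 was 0.029 without c-Maf KO replicate 3 and that of Apoe 0.023 without c-Maf KO replicate 2. Abca1, which exports cholesterol to lipid-poor apolipoprotein A-I, was 0.089, 0.13 and 0.14 in WT and -0.089, -0.28 and -0.19 in c-Maf KO. The WT values lay within a narrow range and all 3 c-Maf KO values were below them. The difference was -0.31 (SE 0.068, interval -0.47 to -0.14), with an unadjusted p of 0.0041 and an adjusted p of 0.211 in limma. Over all settings tried it lay between -0.36 and -0.26, with adjusted p between 0.148 and 0.459. The probe lies at chr4:53043944-53044003 (mm9).

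Abcg1, which exports cholesterol to mature high-density lipoprotein and is, like Abca1, a target of LXR, had the smallest difference of the 3, -0.040 (interval -0.23 to 0.15). It was 0.0033, 0.020 and -0.039 in WT and -0.0033, 0.052 and -0.19 in c-Maf KO, so c-Maf KO replicate 3 alone lay below the other samples. Apoe, a secreted acceptor of cholesterol, was 0.081, 0.026 and -0.026 in WT and 0.15, -0.17 and -0.050 in c-Maf KO. The c-Maf KO samples of Apoe included both the highest and the lowest value, and the difference was -0.052 (interval -0.28 to 0.18). Whether Abca1 differed from Abcg1 in its response was not tested.

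The fatty acid genes held the largest differences of the 35. Scd1, which places a double bond in saturated fatty acyl-CoA and is a target of both SREBP-1 and LXR, was -0.23, -0.44 and -0.22 in WT and 0.22, 0.65 and 0.30 in c-Maf KO. All 3 c-Maf KO samples were above all 3 WT samples, with c-Maf KO replicate 2 the highest. The difference was 0.69 (SE 0.13, interval 0.36 to 1.01), or 1.61-fold, with an unadjusted p of 0.0020 and an adjusted p of 0.175. With normexp background correction on the 5 arrays the difference was 0.38, and no other setting moved it by as much. The adjusted p of Scd1 lay between 0.105 and 0.373 over all settings. The probe lies at chr19:44469387-44469446 (mm9).

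Scd2, the neighbouring desaturase gene on the same chromosome, was -0.045, -0.27 and -0.069 in WT and 0.045, 0.31 and 0.24 in c-Maf KO. The groups did not overlap, and WT replicate 2 was lowest and c-Maf KO replicate 2 highest, as for Scd1. The difference was 0.32 (SE 0.100, interval 0.080 to 0.57, adjusted p = 0.287), or 1.25-fold, at a probe at chr19:44381024-44381083 (mm9). Fasn, which builds palmitate, had the smallest difference of the 3, 0.051, and the widest interval of all 35 genes, -0.53 to 0.63. It was -0.14, 0.044 and 0.36 in WT and -0.16, -0.044 and 0.62 in c-Maf KO. Replicate 3 was the highest sample of each group, and the groups overlapped.

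Markers of other cell types were read in the same samples, from lists chosen with earlier results of these data known. Of 19 fibroblast and stromal markers, 18 were kept, all 18 had positive differences with a median of 0.87, and 14 had groups that did not overlap (77.8%, against 20.0% of all genes). None passed the test in the reported fit, and without WT replicate 1 Cxcl12 (adjusted p = 0.0228), Tagln (0.0422) and Sparc (0.0487) did. Their mean log2 ratio was -0.071, -0.89 and -0.60 in WT and 0.16, 0.14 and 0.50 in c-Maf KO. The 10 macrophage markers had 9 negative differences with a median of -0.16, and their mean was 0.015, 0.071 and 0.021 in WT and -0.0078, -0.20 and -0.093 in c-Maf KO. All 3 c-Maf KO samples thus lay above all 3 WT samples in the stromal mean and below them in the macrophage mean, as they did for Scd1 and Scd2 in the first direction and Abca1 in the second. In RNA of whole cultures, fewer cells of a type and less RNA per cell cannot be told apart, and the part of these markers in the differences of Scd1, Scd2 and Abca1 was not tested. WT replicate 1 lay nearest to c-Maf KO in the stromal mean, and without it the differences were 0.72 for Scd1, 0.37 for Scd2 and -0.32 for Abca1. Without WT replicate 3, which shares its file tag, they were 0.72, 0.35 and -0.30. Leaving out WT replicate 1 raised the genes called over all 20199 from 7 to 100 (0.495%), with no cholesterol gene among them, and leaving out WT replicate 3 gave 3.

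**Figure D4:**
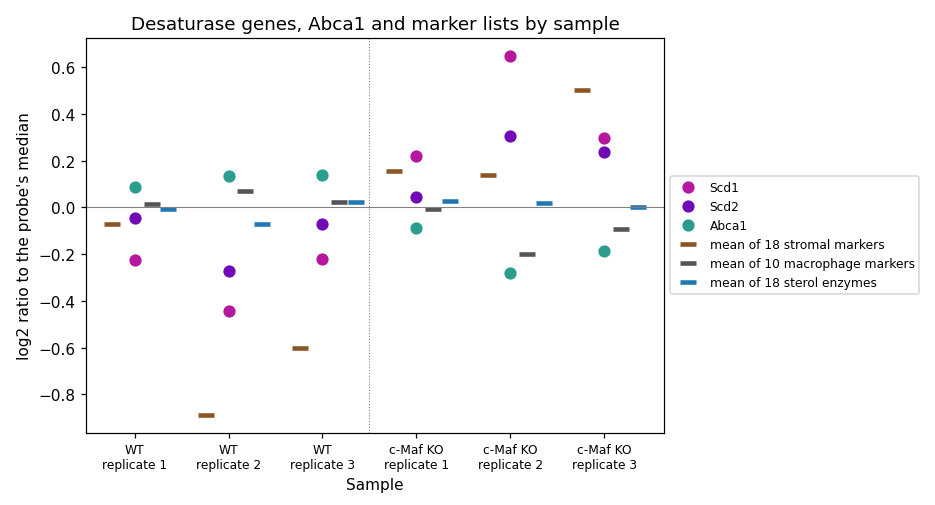
Log2 ratio to the probe's median (y axis) in each of the 6 samples (x axis) of Scd1, Scd2 and Abca1 (points), beside the mean of 18 stromal markers, 10 macrophage markers and 18 sterol enzymes (bars, set to the side of each sample). Scd1 and Scd2 are above 0 in all 3 c-Maf KO samples and Abca1 below it, while the enzyme mean stays within 0.071 of 0.

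Granulocyte markers (9 of 9 kept) had a median difference of -0.39, dendritic markers (6 of 8) -0.041, erythroid markers (4 of 8) 0.045, endothelial markers (3 of 7) -0.15 and the kept hepatocyte markers (6 of 13) -0.057. The 5 kept mast cell and basophil markers of 8 had a median of -0.62, with means of 1.42 in WT replicate 3 and 0.86 in c-Maf KO replicate 2. That median is the difference of Cpa3 (interval -3.80 to 2.56). Cpa3 and Fcer1a were each well above background on only 2 of the 5 arrays with scanner files. The 10 cell cycle genes had a median of -0.076. No gene of these lists passed the test in the reported fit. Against the median of its list, the granulocyte gene Ly6g was 1.55 higher in c-Maf KO without overlap (adjusted p = 0.0771), and it passed under 4 alternatives, with the lowest adjusted p, 0.0237, under the trend and robust options.

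The pathway was extended with 72 further genes of sterol synthesis, SREBP control and targets, LXR signalling and sterol transport, of which 65 were kept. None passed the test in either direction, 41 differences were positive and 24 negative, and at an unadjusted p under 0.05 there were 5 higher and 2 lower (10.8%, against 12.6% of all genes). The groups did not overlap for 7 higher and 6 lower genes (20.0%, the same share as over all genes). Among the genes of sterol synthesis, only Ggps1, which makes geranylgeranyl diphosphate, had groups without overlap (0.12, adjusted p = 0.438). Among the SREBP genes, Me1, the malic enzyme that supplies NADPH, differed by 0.39 (adjusted p = 0.237) and the phosphatidate phosphatase Lpin1 by -0.22 (0.377). Among the LXR genes, the lipoprotein lipase cofactor Apoc2 differed by 0.61 (adjusted p = 0.323) and Nr1h3, which encodes LXR alpha, by 0.14 (0.427).

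The transport and ester genes held the largest of these differences. Cav1, the main coat protein of caveolae, was -0.78, -0.30 and -1.08 in WT and 0.30, 1.11 and 0.68 in c-Maf KO, a difference of 1.41 (SE 0.27, adjusted p = 0.175). Ch25h, which makes an oxysterol that restrains SREBP processing, was -0.13, -0.91 and -0.95 in WT and 0.52, 0.13 and 0.57 in c-Maf KO, a difference of 1.07 (SE 0.25, adjusted p = 0.227). Neither gene had overlapping groups. Gramd1a, a carrier of plasma membrane cholesterol, differed by -0.33 (adjusted p = 0.223). Cav1 is known to be expressed in stromal cells, whose marker mean was higher in c-Maf KO, and their part in its difference was not tested.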

How the data were processed

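RNA of 3 WT and 3 c-Maf KO samples was measured on 1-colour Agilent arrays. Per the submitters' processing notes, the authors obtained spot intensity values with Agilent Feature Extraction (version 10.7.3.1). Scanner files of 5 arrays were used, and no such file of c-Maf KO replicate 1. The authors' deposited value table holds, for all 6 samples, a ratio of each probe to its median over the samples, as judged from the values, and followed the scanner intensity scaled to the 75th percentile (r = 1.0 on each of the 5 arrays). The sources used here do not say how low values were treated upstream.

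Control spots were left out. Spots marked as outliers (134 to 167 of 59305 per array) were left out of the scanner intensities. The fitted ratios come from the authors' value table, from which 13 probes with all spots marked on an array were dropped. The choice of each gene's probe and the filter on dim probes also used only unmarked spots. A gene was kept where its probe of highest mean signal was well above background on at least 2 of 5 arrays. Log2 ratios of the 6 samples were fitted with limma version 3.58.1 (lmFit, eBayes) in R version 4.3.3, with no covariate, and p-values were Benjamini-Hochberg adjusted over all 20199 kept genes. The fit was tested on simulated data. Probe positions are mm9, per the file headers. Every sample's value is given for members whose groups did not overlap and for the largest and smallest difference in each role group; the text also gives them for 3 further members (Hmgcs1, Srebf2 and Apoe), chosen after their values were seen. From each list of further pathway genes, up to 3 of largest difference without overlap are named. Some genes that this rule would name are not reported here. The members and lists were chosen with earlier results of these data known. Alternatives covered the source of values, background correction, normalization, filter, probe rule, variance model, replicate block and leaving out each sample. WT and c-Maf KO arrays lay in different rows of 1 slide, and slide row cannot be told apart from genotype on these 5 arrays.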

Additional observations from a re-analysis of the deposited data

How the results depend on the processing

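Over 14 alternatives to the reported fit, no cholesterol gene and no further pathway gene passed the threshold, and the lowest adjusted p of a cholesterol gene was 0.105. Of 490 differences of single members, 462 kept their sign and 28 turned it. Many of the 462 could not turn. The changes of filter, the trend and robust options and the replicate block leave every member's difference as it was. Averaging probes does so for members with 1 detected probe. The genes called over all genes numbered 21 with normexp on 5 arrays, 2 without the filter on dim probes, 22 with a filter on all 5 arrays and 83 with the trend and robust options of eBayes, against 7 as reported. Leaving out 1 sample gave 2 to 100 genes, the highest without WT replicate 1.

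Same-numbered samples deviated from their group means with correlations of -0.029, -0.061 and 0.039, and 2 of 6 samples correlated best with their own number. These values show no pairing by replicate number, but with 3 samples per group they cannot decide whether the samples were paired. A replicate block gave 3 called genes.

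The median difference of the sterol enzymes was -0.025 to 0.067 and that of all members -0.0040 to 0.057 when 1 sample was left out, both negative without WT replicate 2. Signs turned for Srebf2 (-0.061) and Mylip (-0.00029) on the 5 arrays, for Srebf2 (-0.049) and Msmo1 (0.015) with normexp, for Fdps (0.011) and Msmo1 (0.0019) with quantile normalization and for Tm7sf2 (0.036) when probes of a gene were averaged. When 1 sample was left out, 14 members took both signs: Hmgcs1 (-0.037 to 0.067), Mvk (-0.087 to 0.017), Mvd (-0.048 to 0.037), Idi1 (-0.0033 to 0.12), Fdps (-0.065 to 0.023), Sqle (-0.043 to 0.067), Tm7sf2 (-0.10 to 0.021), Msmo1 (-0.042 to 0.037), Sc5d (-0.043 to 0.13), Srebf1 (-0.12 to 0.019), Srebf2 (-0.060 to 0.15), Abcg1 (-0.089 to 0.029), Apoe (-0.14 to 0.023) and Fasn (-0.19 to 0.20). The cause was not tested. The number of arrays limits the precision.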

Other observations

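Apoc1, which lies beside Apoe and encodes another apolipoprotein of macrophages, was -0.58, 0.073 and -0.37 in the WT samples and 0.30, -0.073 and 2.37 in the c-Maf KO samples, in replicate order. Its difference of 1.15 (SE 0.64, limma adjusted p = 0.507) rests on c-Maf KO replicate 3, in which Apoe was -0.050. Apoc1 was chosen after its values were seen, and no explanation was tested.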
